A study of Mus musculus with 6 samples.

Results

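Transcripts of heat shock chaperones and their co-chaperones were described in hippocampus from 56-day-old C57BL/6 mice. The mice had undergone either focal middle cerebral artery occlusion (MCAO), which models ischemic stroke by closing one of the large arteries that feed the brain, or a sham operation as its surgical control. Both groups are titled 2 h, and each held 3 wild-type samples. The labels leave unsaid whether these 2 h were the occlusion itself or followed it, which hemisphere was taken, and whether each sample was a separate animal. The p-values of the authors therefore reflect variation among samples that could be technical. The authors' deposited table lists called genes alone, with 1 normalised read count per gene for each group, its mean. Its columns M2 and S2 were taken to be MCAO and sham by their initials, on which every direction below depends. Members were the listed genes named Dnajb4, Hspa4, Hsph1 or Hsp90aa1, or with another name that starts with Hspa, Hspb, Hspd, Hspe, Hsph, Hsp90, Dnaja or Dnajb, leaving out the endoplasmic reticulum chaperone Hspa5. The rule found 5 members among the 637 rows: the 4 genes given by name and Dnaja1.

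Cytosolic chaperones bind unfolded or partly folded proteins and release them in cycles of ATP hydrolysis. HSP70 proteins take up clients delivered by J-domain co-chaperones, which also stimulate their ATPase; HSP110 proteins exchange the bound ADP for ATP and so let the client go; and HSP90 acts later on clients such as kinases and steroid receptors. When unfolded proteins accumulate, heat shock factor HSF1 is freed from chaperones, forms trimers and binds heat shock elements, inverted repeats of a short unit before the genes it activates. In brain, induction of inducible HSP70 is a well-known mark of ischemic stress.

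The sequences next to the members' transcription starts were searched for that element, because HSF1 is the known regulator of several of them. The direction that the members share in the table is no ground for it, since the rule was set with the called genes known. RefSeq starts (build GRCm38.p6, which is not the build named for these files) were at hand for 4 members. The set of start windows used here held none for Hsp90aa1, which does not mean that RefSeq has no start for it. The search used the 3-unit element, GAA, TTC and GAA with any 2 bases between neighbouring units (TTC, GAA and TTC on the other strand), in windows from 250 bases before to 50 bases after each start. Hsph1, with 2 annotated starts 21 bases apart, held the element with all 9 fixed bases, and 3 further matches with 1 fixed base different that overlap each other or the exact one. Dnajb4 and Dnaja1 held 1 match each with 1 fixed base different, and Hspa4 held none in its window. The stretches around these matches are shown because they are the feature that 3 of the 4 members share. They are written 5′ to 3′ along the gene, with the bases of all matches in capitals and positions counted from the start, negative before it. The Hsph1 stretches lie at chr5:149636279-149636308 and chr5:149636346-149636375 (minus strand), and each overlaps an Hsph1 exon of GENCODE M21. The Dnajb4 stretch lies at chr3:152193846-152193905 (minus strand), directly before the second of its starts and in no exon of that annotation. The Dnaja1 stretch lies at chr4:40722331-40722360 (plus strand), before the first RefSeq start. It overlaps exons of Dnaja1 and of the opposite-strand RNA Gm6297 in GENCODE M21.
Hsph1, from 8 to 37 after the second start: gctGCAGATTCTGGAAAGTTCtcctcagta
Hsph1, from -60 to -31 at the second start: gaatctTTCTCGAAGGCTCGAGAAgaagga
Dnajb4, from -60 to -1 at the second start: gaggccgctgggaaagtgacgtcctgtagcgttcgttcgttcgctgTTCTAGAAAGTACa
Dnaja1, from -137 to -108 at the first start: aaaaaagcCTCTAGAAAATTCtacgaggct

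The exact element was present for 1 of the 4 members (Hsph1) and for 0.662% of all 27025 genes with a window. With up to 1 of the 9 fixed bases different it was present for 3 of the 4, against 8.15% of all genes and 6.86% of the 277 genes with a window that were called higher. Members with 2 or 3 starts had more sequence searched than Hspa4, which has 1. The exact Hsph1 match lay 16 to 28 bases after the second start, so it is lost when the search is limited to the 250 bases before the start, while all 3 members keep a match with 1 base different there. The other motifs were searched with no base different, so their counts compare with the exact heat shock element and not with its looser form. The cyclic AMP response element TGACGTCA, which the activity-regulated factor CREB binds, was present for 0 of the 4 members, for 11.2% of the genes called higher and for 2.03% of all genes. The printed Dnajb4 stretch holds TGACGTCC, with 1 base different, and the share of genes with such a near match was not counted. The AP-1 site TGANTCA and the TATAAA box were present for 0 of the 4 members, against 8.97% and 15.7% of all genes, and the CCAAT box for 2 of the 4 (Dnaja1 and Hsph1), against 41.1% of all genes. These matches describe letters in a window and not binding.

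**Figure D1:**
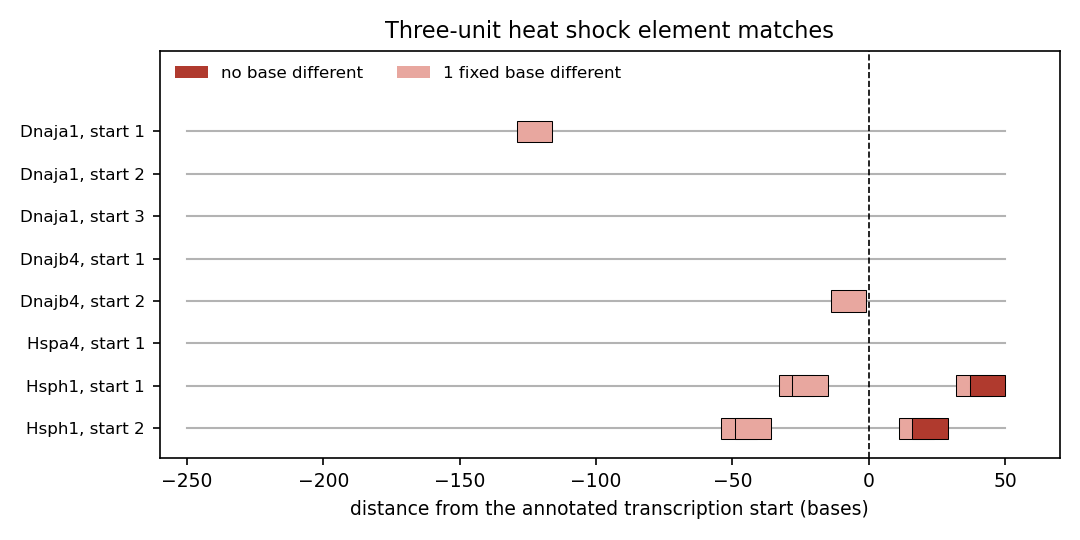
Matches to the 3-unit heat shock element around each annotated start of the 4 members with a window; the x axis is the distance from the start in bases, each line is 1 window, dark boxes have no base different and light boxes have 1. The dark boxes are in the Hsph1 windows, after the start, and the 2 Hsph1 windows overlap, so they show the same sites.

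All 5 members were higher in ischemia in the authors' deposited table, by 1.53-fold to 2.15-fold, with a median of 1.58-fold. The median of all 415 genes called higher was 2.10-fold. Called genes made up 2.25% of the 28319 genes whose testing the adjusted p-values imply, and genes called higher 1.47%. Every listed gene is a call at an adjusted p of 0.05, so the 5 calls follow from the listing. At an adjusted p of 0.01, which 0.929% of tested genes passed as higher, 2 members remained, Dnajb4 and Hspa4, and both remained at 0.001 (0.604% of tested genes). Bonferroni correction, which 0.477% passed, left Dnajb4. A fold of at least 1.5 was reached by all 5, and 1.26% of tested genes were called higher with such a fold. The table holds no value per sample, so whether the groups overlap cannot be seen. In bulk tissue, more cells of a type and more RNA per cell cannot be told apart, nor can fewer cells and less RNA per cell.

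Hsp90aa1 encodes the stress-inducible cytosolic form of HSP90. Its mean was 47678 normalised reads in sham and 72846 in ischemia, a rise of 1.53-fold in the authors' deposited table (log2 fold change 0.61, adjusted p = 0.0115). Per kilobase of exon, its level ranked 2 in sham and 3 in ischemia among the 564 listed genes with a length in GENCODE M21. Its rise per kilobase ranked 15 among them, although its fold ranked 341 of the 415 genes called higher. Of the distinct 50-base words in its GENCODE transcripts, 47.5% also occur in transcripts of 4 other genes, all processed pseudogenes, so its reads could be split or shared by the authors' counting and its level is uncertain. The constitutive paralog Hsp90ab1 is not listed.

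Hsph1 and Hspa4 encode the HSP110-type partners of HSP70, which act as its nucleotide exchange factors and hold unfolded clients. Hsph1 went from 14478 normalised reads in sham to 26165 in ischemia, 1.81-fold higher in the authors' deposited table (log2 fold change 0.85, adjusted p = 0.0121). Hspa4 went from 11787 to 18153 normalised reads, 1.54-fold higher in the authors' deposited table (log2 fold change 0.62, adjusted p = 0.000484). Hspa4 thus had the smaller fold and the smaller adjusted p of this pair. Neither shares a 50-base word with a transcript of another gene in GENCODE M21, and neither overlaps an exon of another gene there. The third HSP110-type gene, Hspa4l, is not listed.

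Dnajb4 and Dnaja1 encode J-domain proteins that deliver clients to HSP70, of class B and class A in turn. Dnajb4 went from 2865 normalised reads in sham to 6174 in ischemia, 2.15-fold higher in the authors' deposited table (log2 fold change 1.11, adjusted p = 8.59e-11). It had the largest fold, the smallest p and the lowest mean of the 5 members, and was the only member with a fold of at least 2. Genes called higher with such a fold made up 0.787% of all tested genes. Dnaja1 went from 16388 to 25815 normalised reads, 1.58-fold higher in the authors' deposited table (log2 fold change 0.66, adjusted p = 0.0319), the largest adjusted p of the members. The Dnaja1 exons of GENCODE M21 overlap those of the splicing factor gene Smu1 on the opposite strand by up to 608 bases and those of Gm6297, also on the opposite strand, by up to 249. The microRNA gene Mir207 lies on the same strand and overlaps a Dnaja1 exon by 74 bases. Of its 50-base words, 20.6% occur in transcripts of 7 other genes, among them processed pseudogenes and Smu1. The sources used here do not state whether reads were counted by strand, and counting by strand would not separate Mir207, so the Dnaja1 value is uncertain. Dnajb4 shares no such word and overlaps no exon of another gene.

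**Figure D2:**
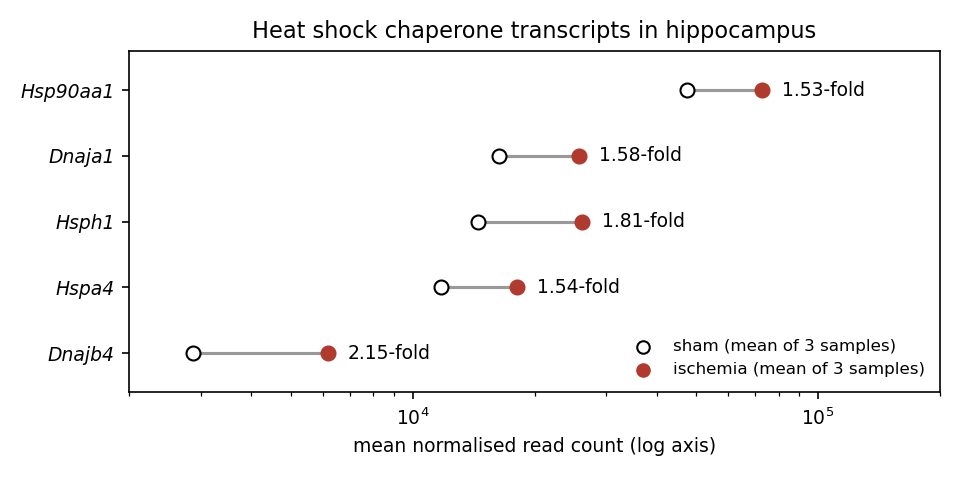
Mean normalised read count of each member in sham (open) and ischemia (filled) on a log axis, each the authors' mean of 3 samples with no error given; the text beside each pair is the fold. Dnajb4 has the lowest read counts, at 2865 and 6174, with the largest fold (2.15), and Hsp90aa1 the highest, at 47678 and 72846, with the smallest (1.53).

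The authors gave no error with their fold changes. If their p-values are read as two-sided normal tests of the log2 fold change, a reading that no source states, they correspond to standard errors of 0.13 for Hspa4, 0.15 for Dnajb4, 0.16 for Hsp90aa1, 0.19 for Dnaja1 and 0.23 for Hsph1 on the log2 scale. The 95% intervals would then be 1.76-fold to 2.64-fold for Dnajb4 and 1.33-fold to 2.46-fold for Hsph1. Those of the other 3 members would be 1.28-fold to 1.85-fold for Hspa4, 1.23-fold to 1.90-fold for Hsp90aa1 and 1.21-fold to 2.04-fold for Dnaja1. These intervals overlap for every pair of members, and the differences between members, which were measured in the same libraries, were not tested.

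Levels can be compared between genes only per length. Divided by the exon length of each gene in GENCODE M21, the sham level was 12129 normalised reads per kilobase for Hsp90aa1, 2132 for Hspa4, 1993 for Hsph1, 1899 for Dnaja1 and 327 for Dnajb4. In ischemia the levels per kilobase were 18531 for Hsp90aa1, 3601 for Hsph1, 3284 for Hspa4, 2992 for Dnaja1 and 704 for Dnajb4. Hsph1 and Hspa4 changed places between the groups. Hspa4, Hsph1 and Dnaja1 lay close together in both groups, with no spread over samples to separate them, while Hsp90aa1 stood far above and Dnajb4 far below them. The exon length joins all annotated transcripts of a gene, and it is not the length the authors counted on.

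Per kilobase, the median sham level of the 5 members was 1993 normalised reads, against 232 for the 361 genes called higher with a length. Among all 564 genes with a length, Hspa4, Hsph1 and Dnaja1 ranked 32, 34 and 36 in sham and Dnajb4 ranked 208. By read count, not divided by length, 20 genes called higher had a sham mean above 10000, and 4 of them were members (Hsp90aa1, Hsph1, Hspa4 and Dnaja1). These 20 genes, the 4 members included, had folds from 1.34 to 2.38 with a median of 1.51. The folds of these 4 members were 1.53 to 1.81. Together the 5 members went from 93195 to 149153 normalised reads, and their rise was 3.86% of the summed rise of all genes called higher. The genes nearest to a member in the plane of the 2 log2 means were Nap1l5, a nucleosome assembly protein gene, and the endoplasmic reticulum chaperone Hspa5 for Hspa4 (distances of 0.044 and 0.070 log2 units). For Dnajb4 they were the nuclear RNA Neat1 and Ciapin1 (0.12 and 0.16), and for Hsph1 the neurofilament gene Nefl and the mitochondrial phosphate carrier Slc25a3 (both 0.24). For Hsp90aa1 the neuropeptide precursor gene Vgf is given, which lay much farther away, at 1.67. Each distance rests on 2 group means of read counts, not divided by length.

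**Figure D3:**
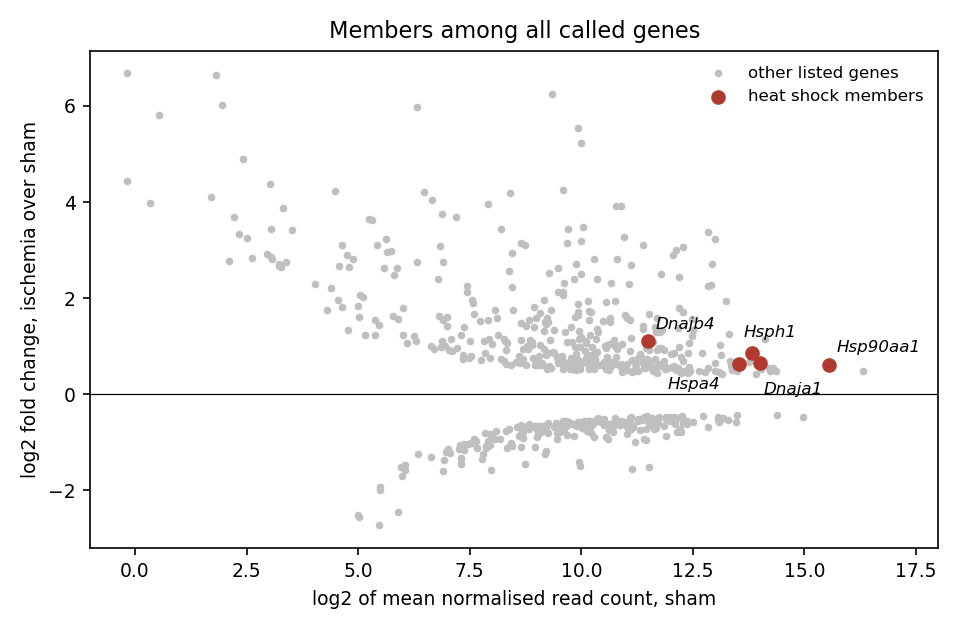
Log2 fold change of ischemia over sham against log2 of the sham mean for the called genes with a sham mean above 0; each point is 1 gene and the members are the filled large points. The members lie towards the right, among the called genes with high read counts, with Dnajb4 highest at a log2 fold change of 1.11.

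Most of the chaperone family is not in the table. GENCODE M21 has 45 protein-coding genes whose names meet the rule, and 5 of them (11.1%) are listed, against 1.47% of all tested genes called higher. The rule was set with the called genes known and gives most of the members by name, so the first share is raised by that choice. By name, 1 of 12 Hspa genes other than Hspa5, 1 of 3 Hsp90 genes, 1 of 4 Dnaja genes, 1 of 13 Dnajb genes and the 1 Hsph gene are listed, and 0 of 10 whose names start with Hspb. The inducible HSP70 genes Hspa1a and Hspa1b, the small heat shock protein gene Hspb1 and the J-domain gene Dnajb1, all classical HSF1 targets, are not listed under these names. For a gene that is not listed, neither its level nor the absence of a change can be read from the table. The names were matched to another annotation than the authors', and which of the 45 genes they tested is not known.

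A further HSP70-type entry has no gene symbol, and it was chosen after its values were seen. Its description in the authors' deposited table names a heat shock cognate protein of the HSP70 family, with a rodent other than the mouse as the source. It went from 19197 normalised reads in sham to 26750 in ischemia, 1.39-fold higher in the authors' deposited table (adjusted p = 0.0126). Hspa8, the gene of the constitutive cytosolic HSP70, is not listed by symbol, and the table does not tie the row to it. Hspa5, which the rule leaves out, was 1.51-fold higher (12301 and 18570 normalised reads, adjusted p = 0.00982) in the authors' deposited table.

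Of 176 genes on 13 lists of chaperones and protein quality control, 7 were called higher and 1 lower. The 7 (3.98% of the 176, against 1.47% of all tested genes) were the 5 members, Hspa5 and Unc45a. The members are called genes by choice and the lists were drawn up with them known, so this share is raised by that choice. Beyond the members, Hspa5 and Unc45a were the only higher calls on the lists, and 168 of the 176 genes are not in the table. The 3.98% thus rests mostly on the members, and no excess over 1.47% can be read from Hspa5 and Unc45a. Unc45a, an HSP90 co-chaperone that folds myosin, was the 1 call among 18 HSP90 co-chaperones and was 1.54-fold higher (1447 and 2222 normalised reads, adjusted p = 0.00172) in the authors' deposited table. The gene called lower was Dnajc28, a J-domain gene of class C and the 1 call of 29 on that list. It was 1.74-fold lower (701 and 404 normalised reads, adjusted p = 0.000711) in the authors' deposited table, a call that 0.784% of all tested genes share. Of the 29 names on the class C list, 26 occur in GENCODE M21, and the others might be names that could not match.

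No call fell on 6 of the lists, each short enough that a share of calls at the background of 2.25% would give under 1. These were the chaperonins (0 of 11, among them the mitochondrial pair Hspd1 and Hspe1 and the cytosolic TRiC ring), prefoldin (0 of 6), the small heat shock proteins (0 of 10), HSP70 nucleotide exchange and helper factors such as Bag3 (0 of 12), heat shock factors and their binding protein (0 of 5), and proteasome and ubiquitin genes (0 of 37). The list of exchange and helper factors leaves out Hsph1 and Hspa4, exchange factors that were called higher and stand on the HSP70 and HSP110 list. Of 25 heat-inducible HSF1 target genes, 4 (16.0%, against 1.47% of all tested genes) were called higher, with a median of 1.69-fold, and 0 lower. The 4 were Hsph1, Hsp90aa1, Dnaja1 and Dnajb4. All of them are members, which are called genes by choice, so the 16.0% is raised by that choice. The other 21 genes of this list are not in the table, so it adds no further gene, and Hspa4 is not on it.

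**Figure D4:**
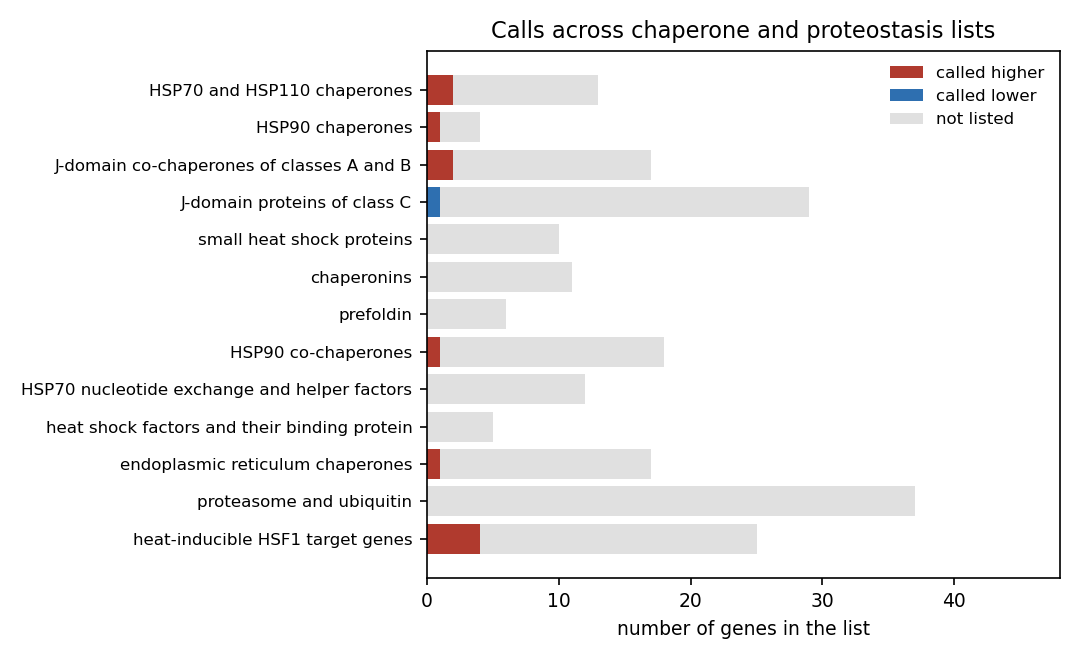
Number of genes called higher, called lower and not listed in each of the 13 lists; bars start at 0 and a gene can be on several lists. Calls are limited to the HSP70 and HSP110, HSP90, J-domain, HSP90 co-chaperone, endoplasmic reticulum and HSF1 target lists.

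Some markers of particular cell types were called in the same comparison, in which 1.47% of all tested genes were called higher and 0.784% lower. Of 8 oligodendrocyte markers Cnp, Cldn11 and Ermn were called higher, by 1.34-fold, 1.35-fold and 1.39-fold in turn in the authors' deposited table. Mbp, Mog, Mag and Mobp, 4 of the 8, are not listed. Cnp went from 15526 normalised reads in sham to 20733 in ischemia, Cldn11 from 9156 to 12338 and Ermn from 2312 to 3214. Of 7 microglia markers Fcrls and Ly86 were called higher, with a summed mean of 1220 in sham and 1816 in ischemia. Of 6 neutrophil and blood markers S100a8 and S100a9 were called higher, with a summed mean of 15.1 in sham and 131 in ischemia. Of the dentate granule cell markers 2 of 6 (Dsp and Lct), of the CA3 markers 1 of 4 (Nptx1) and of the endothelial markers 1 of 5 (Sox18) were called lower. Lct was 2.92-fold, Dsp 2.83-fold, Sox18 2.16-fold and Nptx1 1.39-fold lower in the authors' deposited table. The changes of Lct and Dsp were larger than that of any member. That of Sox18 was about as large as the 2.15-fold rise of Dnajb4. None of 5 astrocyte, 5 interneuron, 4 CA1, 5 choroid plexus and ependyma or 5 neocortex and striatum markers is listed, so the levels of these are not known from the table. The table therefore allows no check of the tissue label against markers of neighbouring regions. The part of cell composition in the chaperone values was not tested.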

How the data were processed

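RNA sequencing of 6 hippocampal samples, 3 per group by their titles, was used; 1 treatment text of the labels is repeated for all 6. The submitters' processing notes name Bowtie 0.12.2 and mm8 with no role, and the gene identifiers carry the prefix of a BALB/cJ annotation, per the file headers and identifiers. The sources used here do not say how reads were counted, whether by strand, how they were normalised or which test was run. The read signal is a normalised read count that the authors averaged per group. The deposited log2 fold changes were recomputed as the log2 of ischemia over sham, with no pseudocount. The p-value and adjusted p-value are the authors' own. No column holds values per sample and depth per library is unknown, so the planned fits, the protein comparison (no sequences used here) and rescaling over all genes were not run. The number of genes tested was found by recomputing Benjamini-Hochberg values, which matched in 636 of 637 rows with 28319 genes; this search and the motif search were tested on simulated data.

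Members, lists, motifs and the naming rule (all members, all called genes of the chaperone lists, at most 2 called examples per marker list, the 2 nearest genes per member given by name) were chosen with earlier results of these data known. The oligodendrocyte list departs from that rule, with more called markers named. One gene that the rule names is not reported here. Exons and transcripts were from GENCODE M21 and start windows from RefSeq (GRCm38.p6); the printed stretches carry GRCm38.p6 coordinates, and none are given for the counted genes, whose build differs. Python 3.11.15, numpy 2.4.6, scipy 1.17.1, pandas 2.3.3 and matplotlib 3.10.9 were used. Alternatives were other thresholds on the adjusted p-value and fold, a minimum mean, Bonferroni correction, pseudocounts, and the mismatch and window of the motif search.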

Additional observations from a re-analysis of the deposited data

How the results depend on the processing

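Of the 5 members called higher, 2 (Dnajb4 and Hspa4) passed an adjusted p of 0.01 (0.929% of all tested genes did so as higher) and the same 2 passed 0.001. Only 1, Dnajb4, passed a log2 fold change of at least 1, and only 1, again Dnajb4, passed Bonferroni correction. Of the 7 higher calls on the chaperone lists, 4 passed 0.01, 2 passed 0.001, 1 passed a log2 fold change of at least 1 and 1 passed Bonferroni correction. Neither a minimum fold of 1.5 nor a minimum of 50 normalised reads, averaged over both groups, removed any of the 5 or the 7. Counting Hspa5 and the row without a symbol as well, an alternative added after the data were seen, gave 7 in place of 5. Pseudocounts of 1 and 10 moved no member's log2 fold change by more than 0.0027. The exact heat shock element was found for 1 member, for 3 with 1 of 9 bases different and for 0 in the 250 bases before the start alone. No paired analysis was possible because the table holds group means without replicate numbers, and for the same reason leaving out single samples was not run.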
